A study of Mus musculus with 10 samples.

Results

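Chemokines, interleukins, their receptor chains and a few related cytokines were examined in tuft cells sorted from the inflamed mouse pancreas. The set comprised each listed gene whose symbol begins with Ccl, Cxcl or Il and a digit, Cx3cl1, and any of 8 cytokine genes given by name. Il25, Il17rb, Il4ra and Il13ra1 were left out because they belong to the type 2 circuit. This rule gave 41 of the 12160 listed genes: 12 chemokines, 10 other cytokines, 2 soluble antagonists or decoys and 17 receptor chains. Of the 8 genes given by name, 5 were listed (Spp1, Mif, Clcf1, Csf1 and Tgfb2), and Lif, Tgfb1 and Tgfb3 had no row to analyse here. The rule uses gene names only and no expression value, but it was chosen with earlier results of these data known.

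RNA was sequenced by Smart-Seq2, a full-length cDNA method for low input, from 5 libraries of tuft cells (Cd45-neg, EpCAM+, Siglec f+), each of 100 cells from an individual mouse, and 5 libraries of non-tuft epithelial cells (Cd45-neg, EpCAM+, Siglec f-neg). Both populations were sorted from the same 5 mice, and no source used here says which libraries came from one mouse. All of the mice were wild type males with chronic pancreatitis, induced by 4 cycles of caerulein at 250 μg/kg. Their strain is recorded as Mixed in 1 field and as CD1, an outbred strain, in another, the study names CD-1, and no age is stated for them. No library came from an uninjured pancreas, so every comparison is between cell populations of the same diseased organ. Within each group the libraries carry the numbers 1 to 5.

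Values are on the scale log2(RPKM + 1), in which RPKM is the read number per length of transcript and per depth of the library, after quantile normalization by the authors. The lowest value that a library holds, where genes without signal stand, is called the floor here. It is 0 in 9 libraries and 0.17 in non-tuft library 2. Non-tuft library 2 also had the most genes at the floor, 3753 against 1442 to 2764 in the other libraries. The sorted populations carried their labelled markers. All 9 listed tuft marker genes were higher in the tuft libraries and 9 of 12 acinar markers were lower. Dclk1 was at 6.84 to 8.46 in non-tuft libraries 1, 2 and 5, at 2.88 in number 3 and at 0 in number 4. Since these are bulk samples of sorted cells, fewer cells of a type and less RNA per cell cannot be told apart.

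Chemokines are small secreted proteins that draw leukocytes along a gradient by binding G protein-coupled receptors. Interleukins and related cytokines act through receptors built from several chains, so that one shared chain, such as gp130 (Il6st), the common gamma chain (Il2rg) or IL-10Rβ (Il10rb), serves many ligands. In the injured pancreas, acinar and ductal cells as well as infiltrating leukocytes and fibroblasts are known sources of these factors. Tuft cells of the intestine are best known for a single interleukin, IL-25, which is outside the set described here.

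Most of the 41 genes were low. Only 4 were above the floor in all 10 libraries (Spp1, Mif, Il1rap and Il11ra1), or 9.76% against 50.2% of all listed genes. A whole group stood at the floor for 4 others (9.76%, against 7.52% of all genes), Il22ra1, Il34 and Il23a in tuft cells and Ccl8 in non-tuft cells. In the tuft libraries between 18 and 26 of the 41 genes were above the floor, and in the non-tuft libraries between 15 (library 2) and 32 (library 5). A mean of 5 or more on the log2 scale was reached in either population by 5 of them, namely Spp1, Mif, Cxcl17, Il1rn and Il10rb.

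**Figure D1:**
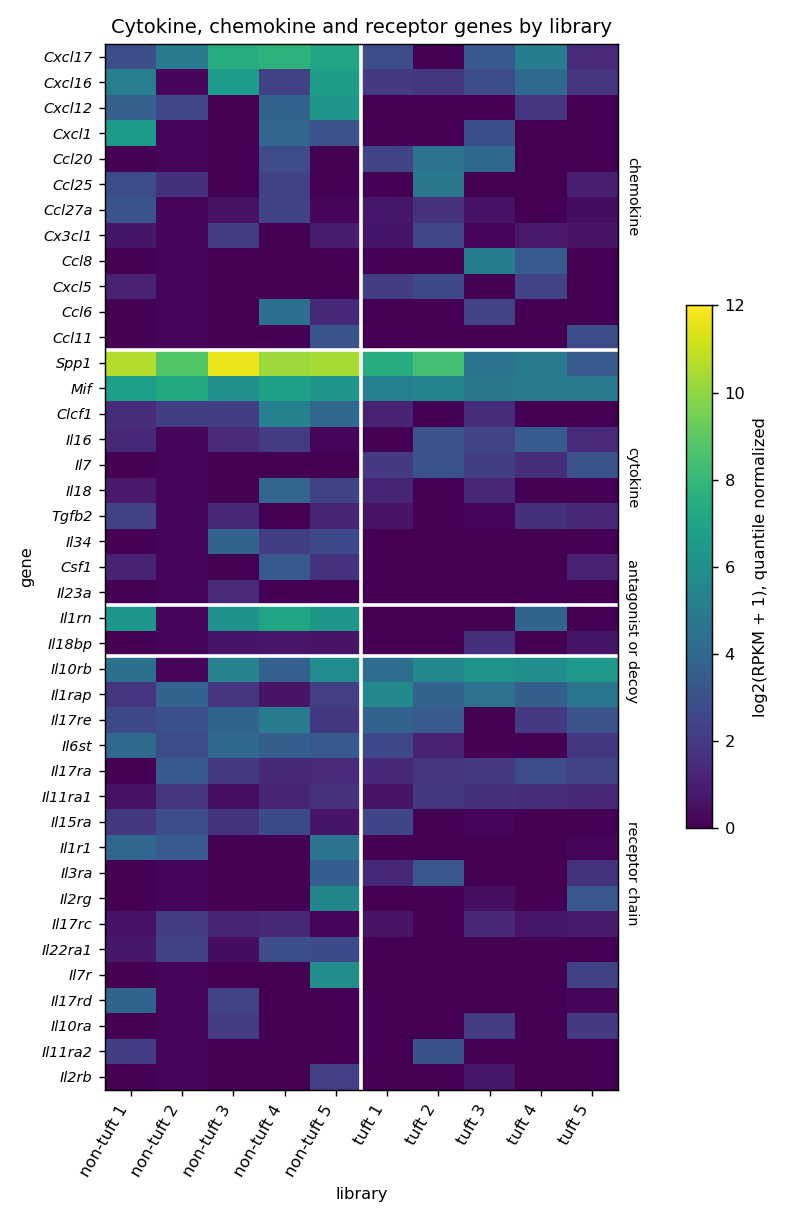
Heat map of the log2(RPKM + 1) values of the 41 genes (rows, grouped by role and ordered by mean value) in the 5 non-tuft and 5 tuft libraries (columns). Spp1 and Mif have signal in all columns, Cxcl17 and Il1rn are brighter in most non-tuft libraries, Il7 exceeds 0.17 only in the tuft columns, and Il7r, Il2rg and Ccl11 appear mainly in the columns numbered 5.

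Tuft cells differed from non-tuft epithelial cells in 9 of the 41 genes at an adjusted p under 0.05 (22.0%, against 11.7% of all listed genes). With the fold change over 4 that the study also required, 7 genes were called (17.1%, against 8.31% of all genes). Il7 and Il1rap were called higher in tuft cells (4.88%, against 4.32% of all genes). Spp1, Il6st, Clcf1, Il1rn and Cxcl17 were called lower (12.2%, against 3.99% of all genes). Mif and Il22ra1 passed the adjusted p alone, and both had lower values in tuft cells. Islet RNA differed in the same direction, with 4 of 9 islet markers called lower in tuft cells and a summed linear value of 2.71 to 21794 in the non-tuft libraries (highest in number 1) against 0.48 to 38.2 in the tuft libraries. The part of islet and acinar RNA in the genes called lower was not tested. These p-values come from limma, adjusted by Benjamini-Hochberg over all 12160 genes. At an unadjusted p under 0.05 there were 13 genes (31.7%, against 25.1% of all genes), 2 with higher and 11 with lower values in tuft cells. The median log2 difference between tuft and non-tuft libraries was -0.39 over the 41 genes and 0.02 over all genes. The groups did not overlap for 5 of the 41 genes (12.2%, against 11.4% of all genes), namely Il7, Spp1, Mif, Il6st and Il22ra1.

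The split between directions depended on the scaling. Setting the libraries to a common mean of 80 ribosomal protein genes moved the median log2 difference of all genes from 0.02 to 0.82, and left 2 genes called higher (Il7 and Il1rap) and 1 called lower (Spp1), while over all genes 10.6% were then called higher and 1.85% lower. Single libraries also mattered for the number called lower. It was 2 on leaving out non-tuft 5, tuft 2 or tuft 5, and 3 on leaving out non-tuft 4, tuft 1 or tuft 3. Over all genes the share called lower stayed between 3.24% and 3.92% with single libraries left out.

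**Figure D2:**
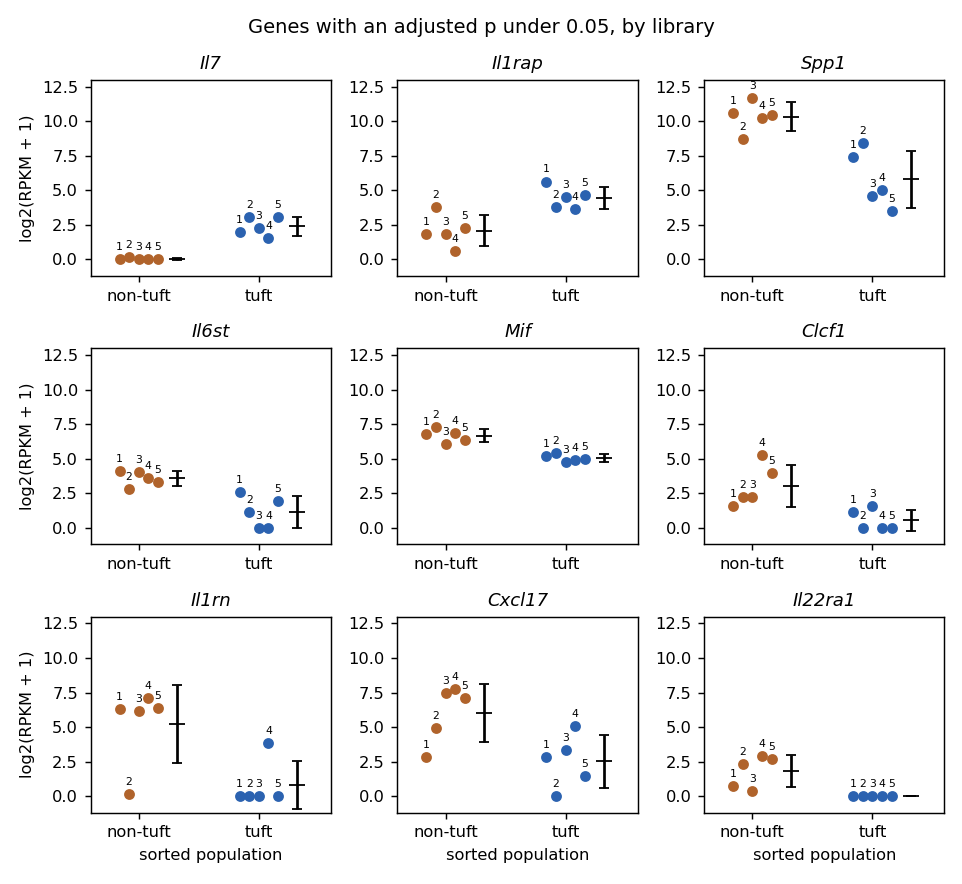
Values in log2(RPKM + 1) of the 9 genes with an adjusted p under 0.05, in each non-tuft (left, orange) and tuft (right, blue) library, with library numbers above the points and mean and SD (n = 5) as bars beside them. Every tuft point lies above every non-tuft point for Il7 and below every non-tuft point for Spp1, Mif, Il6st and Il22ra1. The groups overlap for Il1rap, Clcf1, Il1rn and Cxcl17.

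Il7 encodes interleukin 7, a growth and survival factor for lymphocytes that epithelial and stromal cells secrete. In the tuft libraries 1 to 5 it was at 1.98, 3.09, 2.25, 1.55 and 3.06. Among non-tuft libraries, number 3 showed 0.041 and the other non-tuft libraries stood at their floors. All tuft libraries thus held Il7 signal at a low level and no non-tuft library exceeded 0.17. Tuft cells were higher by a log2 difference of 2.34 (standard error 0.40, adjusted p = 0.00208, limma), whose size depends on the 1 added to each RPKM because nearly all non-tuft values lie at the floor. The adjusted p stayed between 0.00182 and 0.00750 with any single library left out. The gene lies on chromosome 3, 7572036 to 7613722, minus strand (NCBIM37, the assembly also called mm9). In the same assembly the other 8 genes past the adjusted p lie on 8 other chromosomes, and the protein-coding gene is the annotated feature in each case. Il1rap is at chr16:26581790-26730203 and Il6st at chr13:113265216-113297068, Spp1 at chr5:104864137-104870069 and Clcf1 at chr19:4214238-4223490, Il1rn at chr2:24192373-24207014 and Il22ra1 at chr4:135284087-135308055, all on the plus strand. Mif, at chr10:75322098-75322995, and Cxcl17, at chr7:26185072-26197905, are on the minus strand. The genes of the IL-7 receptor, Il7r and Il2rg, did not follow the pattern of Il7 over the libraries and are described further on.

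Il1rap encodes the accessory chain that completes the receptors for IL-1, IL-33 and IL-36. It was at 5.63, 3.77, 4.49, 3.63 and 4.69 in tuft libraries 1 to 5 and at 1.81, 3.76, 1.84, 0.63 and 2.25 in the non-tuft libraries. The groups met at a single point, where non-tuft library 2 lay above tuft library 4. The mean log2 difference was 2.38 (standard error 0.58, adjusted p = 0.0168, limma), and the adjusted p stayed between 0.00535 and 0.0461 when single libraries were left out. Without both libraries numbered 5 it was 0.0802. Non-tuft library 2 also held the tuft genes Dclk1 at 8.46 and Trpm5 at 4.32, whereas non-tuft library 4, with the lowest Il1rap value, listed both at 0. The part of this tuft cell RNA in the non-tuft values of Il1rap was not tested.

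Il1r1, the ligand-binding chain of the IL-1 receptor, did not rise with its accessory chain. Its only tuft signal was 0.16 in library 5, against 3.95, 3.42, 0.031, 0 and 4.59 in non-tuft libraries 1 to 5. The non-tuft libraries fell into 3 with clear signal and 2 without, and the difference did not pass the threshold (log2 difference -2.37, standard error 0.84, adjusted p = 0.0916, limma). With non-tuft library 3 left out the adjusted p was 0.0353, and with number 4 left out 0.0322. With any one of the other libraries left out it lay between 0.152 and 0.195. Neither of the other IL-1 receptor family chains that share Il1rap, Il1rl1 and Il1rl2, was among the 41 genes.

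Il1rn encodes the IL-1 receptor antagonist, which occupies the IL-1 receptor without signalling. Its non-tuft values were 6.29, 0.17, 6.16, 7.10 and 6.36 in libraries 1 to 5. Tuft library 4 had a value of 3.88 and the other tuft libraries were listed at 0. Each group therefore had a single library that went with the other group, non-tuft library 2 at the floor and tuft library 4 with signal. This gave a log2 difference of -4.44 (standard error 1.21, adjusted p = 0.0295, limma; exact permutation test over the libraries, two-sided, p = 0.0159). Without non-tuft library 2 the adjusted p was 0.00115. Without any one of the other libraries except tuft library 4 it lay between 0.0753 and 0.0814, so the call rests on all of them. Tuft library 4 also had the highest acinar marker sum of the tuft libraries. Its summed linear value over 12 acinar markers was 67119, against 698 to 26190 in the other tuft libraries. Single markers did not all follow, with Cela1 at 8.30 against 10.28 in tuft library 1, and Rbpjl at 0. In the non-tuft libraries the sum was 65175 to 96581, with 90243.5 in number 2, where Il1rn stood at its floor. The part of acinar RNA in the value of Il1rn in tuft library 4 was not tested.

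Il18bp, the soluble decoy for IL-18, was low in both groups, at most 1.68 in tuft library 3 and 0.73 in non-tuft library 4. Il18, its ligand, was above the floor in 2 tuft libraries (1.25 and 1.33) and 3 non-tuft libraries (0.82, 3.91 and 2.35). Neither differed beyond the spread between libraries (adjusted p = 0.975 and 0.461, limma).

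Spp1, osteopontin, a secreted phosphoprotein that binds integrins and CD44 and is a marker of pancreatic ducts, had the highest mean of the set in both populations, but in tuft libraries 3, 4 and 5 Il10rb lay above it. Non-tuft libraries 1 to 5 were at 10.60, 8.73, 11.66, 10.20 and 10.43, and tuft libraries 1 to 5 at 7.43, 8.39, 4.59, 5.01 and 3.47. The tuft libraries spread over almost 5 log2 units, and tuft libraries 1 and 2 came close to the lowest non-tuft library without reaching it. Spp1 differed by -4.55 on the log2 scale (standard error 0.87, adjusted p = 0.00413, limma), and the adjusted p stayed between 0.00188 and 0.0167 with single libraries left out. Of the 7 other ductal markers listed, none passed an adjusted p of 0.05. Summed on the linear scale, these 7 markers came to 343 to 609 in tuft and 209 to 535 in non-tuft libraries, so that the sum was not lower in tuft cells. Acinar marker RNA also varied among the tuft libraries, and its part in the Spp1 values was not tested. Among the receptors of osteopontin, Cd44 was at 4.08 to 4.92 in the tuft libraries and 1.72 to 6.01 in the non-tuft libraries (adjusted p = 0.932, limma).

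Mif encodes macrophage migration inhibitory factor, a broadly expressed cytokine that signals through CD74. It was at 5.19, 5.42, 4.75, 4.89 and 5.01 in tuft libraries 1 to 5 and 6.79, 7.31, 6.03, 6.88 and 6.37 in the non-tuft libraries. No tuft library reached a non-tuft library. The log2 difference of -1.62 (standard error 0.38, adjusted p = 0.0126, limma) was under the fold threshold and did not pass after the ribosomal protein centring (-0.82, adjusted p = 0.140). Cd74 values of 0 to 6.22 in tuft and 4.25 to 7.90 in non-tuft libraries did not pass the test (adjusted p = 0.247, limma).

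Il6st and Clcf1, which encode a shared signalling chain and a ligand that acts through it, were both called lower in tuft cells. Il6st, which encodes gp130, the chain that several ligands recruit together with their own receptor chains, was at 4.13, 2.78, 4.03, 3.62 and 3.32 in non-tuft libraries 1 to 5. In the tuft libraries it was at 2.58, 1.16, 0, 0 and 1.95. The highest tuft value lay just under the lowest non-tuft value, and 2 tuft libraries were at the floor. The log2 difference was -2.44 (standard error 0.55, adjusted p = 0.0109, limma). Il6st lost its call in 3 alternatives. The adjusted p was 0.0554 with 0.1 in place of 1 added to each RPKM, and after the ribosomal protein centring a difference of -1.64 (adjusted p = 0.0523) missed both thresholds. With 10 added, the difference of -0.86 (adjusted p = 0.00937) was under the fold threshold.

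Clcf1, cardiotrophin-like cytokine, a ligand of the gp130 family, was at 1.56, 2.22, 2.21, 5.24 and 3.99 in non-tuft libraries 1 to 5. Tuft libraries 1 and 3 held 1.14 and 1.58, and tuft libraries 2, 4 and 5 were at the floor. A single tuft library, number 3, overlapped the lowest non-tuft library. Its log2 difference was -2.50 (standard error 0.68, adjusted p = 0.0287, limma). The call was lost on leaving out any of 5 libraries (non-tuft 4 and 5 and tuft 2, 4 and 5), with adjusted p-values of 0.0521 to 0.0772. It was also lost after the ribosomal protein centring (adjusted p = 0.108), with 10 added (adjusted p = 0.137) and with the library number as a block (adjusted p = 0.0668).

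The other receptor chains that use gp130 did not pass the test. Lifr, the LIF receptor chain, was at 0.45 to 3.11 in tuft and 1.04 to 5.42 in non-tuft libraries (adjusted p = 0.107), and Osmr, the oncostatin M receptor chain, was at the floor in 4 tuft libraries, at 1.88 in tuft library 5 and at 0.17 to 4.30 in the non-tuft libraries (adjusted p = 0.0668). Il11ra1, the IL-11 receptor chain, was above the floor in all 10 libraries, between 0.48 and 1.91, and showed no difference (log2 difference 0.27, standard error 0.42, adjusted p = 0.742). Il11ra2 had signal only in tuft library 2 and non-tuft library 1. It is a close copy of Il11ra1, and reads of the pair may have been divided by the quantification. Il11ra1 also overlaps the end of Ccl27a on chromosome 4 by a few bases on the other strand.

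Il10rb and Il22ra1, the chains that together form the IL-22 receptor, parted in tuft cells. Il10rb was the most abundant receptor chain of the set, at 4.30, 5.59, 6.23, 5.90 and 6.46 in tuft libraries 1 to 5 and at 4.44, 0.17, 5.34, 3.66 and 5.85 in the non-tuft libraries. These values overlapped, and the log2 difference of 1.80 (standard error 0.90, adjusted p = 0.235, limma) did not pass. Il22ra1, the chain specific to IL-22 and its relatives, was listed at 0 in every tuft library and at 0.77, 2.33, 0.41, 2.89 and 2.68 in non-tuft libraries 1 to 5. Its adjusted p was 0.0356 (limma; exact permutation test, two-sided, p = 0.00794, the smallest that 5 against 5 libraries allow), and no fold is given against a group at 0. The adjusted p lay between 0.0660 and 0.0800 without any one tuft library or without non-tuft library 2, 4 or 5. Il10ra, the chain specific to IL-10, was above the floor in 2 tuft libraries (2.09 and 2.04) and in non-tuft library 3 alone (2.08).

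Among the IL-17 receptor chains other than the one that binds IL-25, none passed the test. Il17ra, the chain common to the family, was at 1.37 to 2.80 in the tuft libraries and 0 to 3.34 in the non-tuft libraries. Il17re, the IL-17C receptor chain, was the highest of them, at 0 to 3.76 in tuft and 1.93 to 4.89 in non-tuft libraries (log2 difference -0.78, standard error 0.74, adjusted p = 0.565). Il17rc stayed at or under 2.14 in every library, and Il17rd had signal in non-tuft libraries 1 (3.88) and 3 (2.44) and no more than 0.22 in any tuft library. Il15ra, which presents IL-15 to neighbouring cells, was at 0.67 to 2.76 in the non-tuft libraries. In the tuft libraries it was at 2.51 in number 1 and no higher than 0.17 in the others. Its adjusted p (limma) was 0.144, or 0.0244 without tuft library 1. Without any one of the other libraries it lay between 0.0770 and 0.264.

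**Figure D3:**
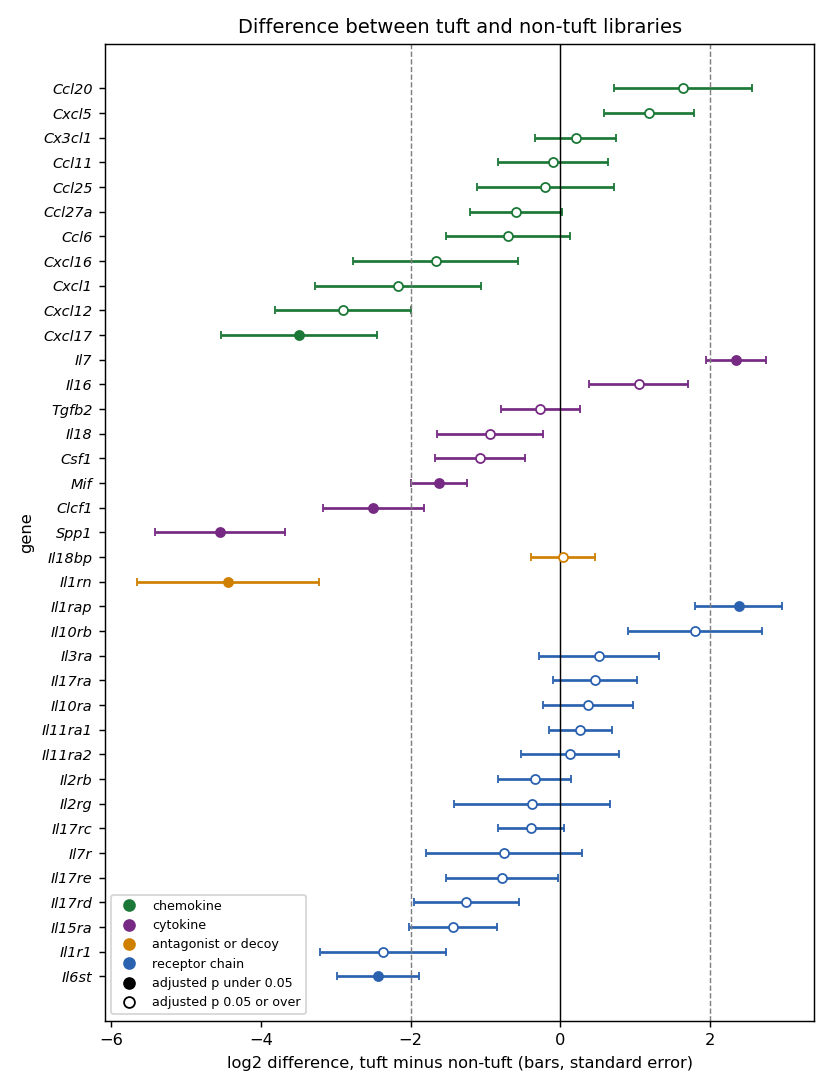
Log2 difference between tuft and non-tuft libraries (x axis, tuft minus non-tuft, bars are the standard error from limma) for the genes with neither group entirely at the floor, with filled points for an adjusted p under 0.05. Dashed lines mark the 4-fold threshold, which Il7 and Il1rap pass on the right and Spp1, Il1rn, Cxcl17, Clcf1 and Il6st on the left, with Mif inside.

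Cxcl17 was the only one of the 12 chemokines that was called. It encodes a mucosal chemokine that attracts monocytes and dendritic cells. Non-tuft libraries 1 to 5 were at 2.84, 4.96, 7.48, 7.75 and 7.12 and tuft libraries 1 to 5 at 2.80, 0, 3.32, 5.10 and 1.48. The groups overlapped, with non-tuft libraries 1 and 2 among the tuft values and tuft libraries 3 and 4 among the non-tuft values. The log2 difference was -3.49 (standard error 1.05, adjusted p = 0.0468, limma; exact permutation test, two-sided, p = 0.0476). It stayed under 0.05 only without non-tuft library 1 or tuft library 4, and lay between 0.0670 and 0.119 without any one of the others. It was also 0.0503 with the trend and robust settings of limma.

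Cxcl12, which retains CXCR4-bearing cells in tissues, had signal in a single tuft library (1.79 in number 4), with the others listed at 0. It was at 3.66, 2.54, 0, 3.76 and 6.37 in non-tuft libraries 1 to 5. The difference just missed the threshold (log2 difference -2.91, standard error 0.91, adjusted p = 0.0566, limma). Without non-tuft library 3 the adjusted p was 0.00848. Without any one of the other libraries it lay between 0.0616 and 0.126, and it was 0.104 without non-tuft library 5. The highest value, in non-tuft library 5, came from a library with fibroblast marker RNA, described below. Ackr3, a scavenging receptor for this chemokine, was at the floor in all tuft libraries and between 0 and 3.26 in the non-tuft libraries (adjusted p = 0.141).

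Cxcl16, a membrane-bound chemokine, was above the floor in every tuft library, at 2.03, 1.95, 2.75, 4.08 and 1.81. In non-tuft libraries 1 to 5 it was at 5.11, 0.17, 6.58, 2.37 and 6.72. The 3 highest values were non-tuft, the lowest was non-tuft library 2 at its floor, and the difference did not pass (log2 difference -1.67, standard error 1.10, adjusted p = 0.384, limma). Its receptor Cxcr6 went the other way. Tuft libraries 1 to 5 held Cxcr6 at 2.73, 3.01, 4.33, 3.69 and 4.02, and of the non-tuft libraries only number 5 held it, at 3.24. It was called higher in tuft cells (log2 difference 2.87, standard error 0.64, adjusted p = 0.00997, limma).

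The neutrophil-attracting chemokines were patchy. Cxcl1 was at 6.55, 0.17, 0, 3.91 and 3.07 in the non-tuft libraries and had signal in a single tuft library (2.87 in number 3), with an adjusted p of 0.248. Cxcl5 was at 2.19, 2.66 and 2.45 in tuft libraries 1, 2 and 4 and at 1.21 in non-tuft library 1 alone. Its adjusted p (limma) was 0.243, or 0.0168 after the ribosomal protein centring. With single libraries left out it lay between 0.137 and 0.439. Ccl20, which draws CCR6-bearing cells to mucosal surfaces, was found in tuft libraries 1, 2 and 3 (2.48, 4.57 and 4.04) and in non-tuft library 4 (2.74) (adjusted p = 0.303).

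None of the 5 chemokines that follow passed the test. Ccl8, a monocyte chemoattractant, had signal only in tuft libraries 3 and 4, at 5.11 and 3.44. Ccl25, known for drawing lymphocytes to the gut, reached 4.81 in tuft library 2 and no more than 2.81 elsewhere. Ccl6 reached 4.38 in non-tuft library 4 and 2.44 in tuft library 3. Ccl27a stayed at or under 3.13 and Cx3cl1, the membrane-bound fractalkine, at or under 2.57 in all libraries. Their adjusted p ranged from 0.277 for Ccl8 to 0.923 for Ccl25.

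Csf1 and Il34 encode the ligands of the CSF-1 receptor. Il34 was listed at 0 in every tuft library and had values of 3.78, 2.23 and 2.65 in non-tuft libraries 3, 4 and 5. Its adjusted p (limma) was 0.107, or 0.0415 without non-tuft library 1. Without any one of the other libraries it lay between 0.0519 and 0.209. Csf1 reached 1.08 in tuft library 5 and stood at the floor in the rest of the tuft group, and lay between 0 and 3.39 in the non-tuft libraries (adjusted p = 0.296). Il16, a lymphocyte attractant, was above the floor in 4 tuft libraries, at 3.09, 2.47, 3.51 and 1.41 in numbers 2 to 5, and at most 2.10 in the non-tuft libraries (adjusted p = 0.360). Tgfb2 stayed at or under 2.36 in all libraries and Il23a had signal in non-tuft library 3 alone (1.47).

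Il7r, Il2rg, Il2rb and Ccl11 were found mainly in the libraries numbered 5. Il7r, the IL-7 receptor chain of lymphocytes, was at 5.93 in non-tuft library 5 and 2.34 in tuft library 5, and at the floor in the other 8 libraries. Il2rg, the common gamma chain, was at 5.50 and 3.27 in the same libraries and at 0.49 in tuft library 3. Ccl11, eotaxin, which attracts eosinophils and is made by fibroblasts, was at 3.18 and 2.84 in the same libraries and at the floor in all others. Il2rb was at 2.27 in non-tuft library 5 and 0.72 in tuft library 3. None of the 4 genes differed between the populations (adjusted p from 0.700 to 0.953, limma).

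Both libraries numbered 5 also held RNA of other cell types. All 8 listed fibroblast and endothelial markers were above the floor in both, with Dcn at 8.34 and 6.84, Lum at 6.84 and 6.19 and Col3a1 at 7.26 and 5.10 in non-tuft and tuft library 5. The summed linear value of this list was 754 in non-tuft library 5 and 254 in tuft library 5, against 0 to 23.1 in the other libraries. The lymphocyte genes Cd3g and Cd79a were at 3.72 and 5.23 in non-tuft library 5 and at 1.92 and 3.56 in tuft library 5. Outside the libraries numbered 5, Cd3g was at the floor and Cd79a had signal in tuft libraries 1 and 4 (2.35 and 3.38). The part of these cells in the values of Il7r, Il2rg, Il2rb and Ccl11 was not tested. In the full leukocyte list, 8 of 22 markers were listed and 1 was called, Ptprc (CD45), higher in tuft cells at 2.74 to 4.33 against 0 to 1.93, while its summed linear value was 20.5 to 81.7 in tuft and 8.65 to 147 in non-tuft libraries. Il3ra, the IL-3 receptor chain, was less tied to number 5, at 3.59 in non-tuft library 5 and at 1.36, 3.24 and 1.75 in tuft libraries 1, 2 and 5.

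**Figure D4:**
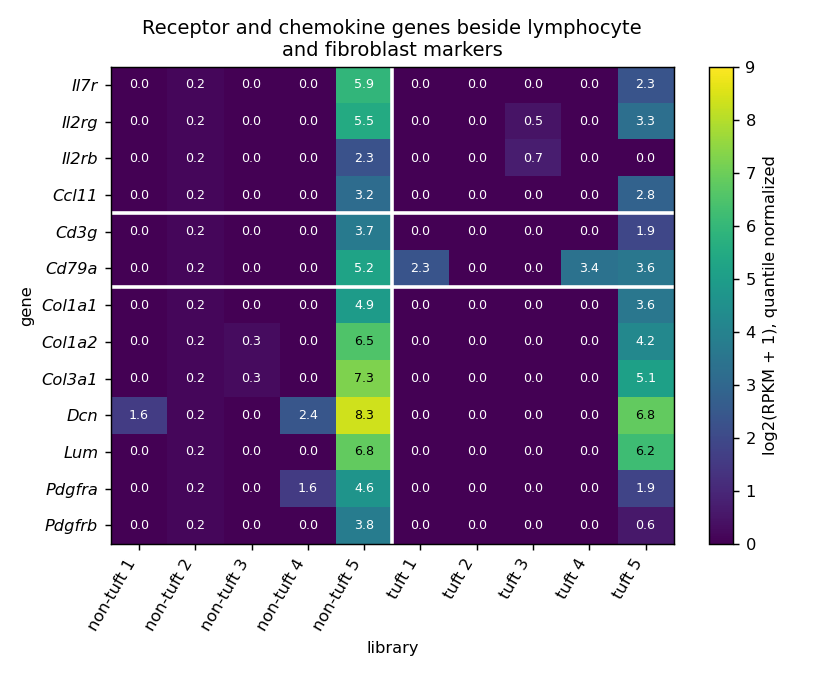
Values in log2(RPKM + 1) of 4 genes of the set (top), 2 lymphocyte markers (middle) and 7 fibroblast markers (bottom) in each non-tuft and tuft library, with each value printed in its cell. The columns non-tuft 5 and tuft 5 hold nearly all of the signal, up to 8.3 for Dcn.

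Leaving out both libraries numbered 5 left 4 of the 41 genes at an adjusted p under 0.05 (9.76%, against 7.87% of all genes in the same fit). Il7 was called higher (1 gene, 2.44%, against 3.63% of all genes), Spp1 and Il6st were called lower (2 genes, 4.88%, against 2.99%), and Mif passed the adjusted p alone. With 4 libraries in each group there were fewer calls over all genes too. Among the genes that lost the call, the log2 difference of Il1rap went from 2.38 to 2.37 and that of Il1rn from -4.44 to -3.96. It went from -3.49 to -2.95 for Cxcl17 and from -2.50 to -2.13 for Clcf1. Why these genes lost the call was not tested.

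Around these ligands and receptors, 97 genes of 6 pathway lists were listed, of which 5 were called higher (5.15%, against 4.32% of all genes) and 4 lower (4.12%, against 3.99%). Their median log2 difference was -0.04. Of 6 listed chemokine receptors, Cxcr6 and Ackr4, a scavenging receptor for CCL19, CCL21 and CCL25, were called higher. Ackr4 values lay between 0.62 and 2.88 in tuft cells, and no non-tuft value exceeded 0.17 (adjusted p = 0.0115, limma). Of 21 receptors and binding partners of other ligands, Itgb6, the integrin chain that activates latent TGF-β, was called higher (3.62 to 4.39 in tuft and 0 to 4.31 in non-tuft libraries, adjusted p = 0.0357) and 1 gene lower.

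Of 26 listed JAK, STAT and SOCS genes, which carry and restrain the signal of most interleukin receptors, only Ptpn6 was called. It encodes SHP-1, a phosphatase that dampens cytokine receptor signalling, and was at 6.71 to 7.99 in the tuft libraries and 0.0074 to 4.62 in the non-tuft libraries (log2 difference 4.87, standard error 0.75, adjusted p = 0.00106, limma). Stat3, the main STAT downstream of gp130, was at 3.41 to 4.14 in tuft and 2.83 to 5.65 in non-tuft libraries (adjusted p = 0.524), and Socs3, which it induces, at 0 to 2.03 and 0 to 3.14 (adjusted p = 0.276).

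Of 27 listed genes of the MyD88, IL-17 receptor and NF-κB pathways, Relb, a subunit of the alternative NF-κB complex, was called lower. It was at 3.56 to 4.81 in the non-tuft libraries, at 1.76 and 0.48 in tuft libraries 2 and 3 and at 0 in the other tuft libraries (log2 difference -3.95, standard error 0.45, adjusted p = 1.17e-04, limma). Tirap, an adaptor of Toll-like receptors, passed the adjusted p alone with higher values in tuft cells (1.54 to 2.12 against 0 to 1.21, adjusted p = 0.0394). Myd88, which the IL-1 receptor with its accessory chain recruits, was at 2.39 to 3.73 in tuft and 0.17 to 3.83 in non-tuft libraries (adjusted p = 0.316). Of 10 listed SMAD pathway genes, Smad7 and Ltbp3 were called lower (adjusted p = 0.0149 and 0.0284), the first an inhibitor of TGF-β signalling and the second a carrier of latent TGF-β. Of 7 listed genes for cytokine processing, Naip5, a sensor of bacterial flagellin, was called higher (2.11 to 3.78 against 0 to 1.38, adjusted p = 0.00212), while Casp1, which cleaves pro-IL-18, had signal in tuft libraries 2 and 4 alone (2.99 and 2.29).

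Promoter windows are shown for the called genes that have an entry in RefSeq's tables, so that the sequence around their starts stands beside their values. Each window runs from 250 bases before to 50 bases after a transcript start (assembly GRCm38.p6, 5′ to 3′), and differs in build from the gene positions above. Those shown are on the plus strand. Of the 41 genes, 29 had a window, and of the 9 genes past the adjusted p, 6 had one, with 9 windows in all. Capitals mark matches, on either strand, to the octamer ATGCAAAT bound by POU factors, to the AP-1 motif TGANTCA, to the STAT motif TTCNNNGAA or to the kappaB motif.

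Il1rap, called higher, chr16:26581455-26581754: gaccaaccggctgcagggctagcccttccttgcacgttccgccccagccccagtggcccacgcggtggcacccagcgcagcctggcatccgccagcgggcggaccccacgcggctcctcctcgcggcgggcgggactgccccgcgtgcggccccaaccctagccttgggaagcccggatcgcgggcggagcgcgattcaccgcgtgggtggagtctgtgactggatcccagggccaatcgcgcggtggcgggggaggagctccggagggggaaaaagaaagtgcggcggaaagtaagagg

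Il6st, called lower, chr13:112463820-112464119: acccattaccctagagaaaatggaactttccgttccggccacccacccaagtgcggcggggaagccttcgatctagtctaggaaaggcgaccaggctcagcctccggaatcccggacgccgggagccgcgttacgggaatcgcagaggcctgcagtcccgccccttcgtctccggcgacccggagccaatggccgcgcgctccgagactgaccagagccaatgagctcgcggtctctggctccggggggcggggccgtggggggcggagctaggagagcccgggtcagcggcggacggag

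Spp1, called lower, upstream start, chr5:104434861-104435160: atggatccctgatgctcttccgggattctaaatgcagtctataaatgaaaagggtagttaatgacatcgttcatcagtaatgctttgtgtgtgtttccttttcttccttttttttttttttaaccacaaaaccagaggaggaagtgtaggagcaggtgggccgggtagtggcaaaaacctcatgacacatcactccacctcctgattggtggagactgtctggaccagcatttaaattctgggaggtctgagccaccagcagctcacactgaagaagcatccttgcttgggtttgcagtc

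Spp1, downstream start, chr5:104435942-104436241: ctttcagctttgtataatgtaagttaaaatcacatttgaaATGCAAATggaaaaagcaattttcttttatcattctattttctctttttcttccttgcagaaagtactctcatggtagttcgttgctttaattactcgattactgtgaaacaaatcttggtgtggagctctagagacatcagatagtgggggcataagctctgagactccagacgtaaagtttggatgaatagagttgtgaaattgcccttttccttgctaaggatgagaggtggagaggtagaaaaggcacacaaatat

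Il1rn, called lower, upstream start, chr2:24336610-24336909: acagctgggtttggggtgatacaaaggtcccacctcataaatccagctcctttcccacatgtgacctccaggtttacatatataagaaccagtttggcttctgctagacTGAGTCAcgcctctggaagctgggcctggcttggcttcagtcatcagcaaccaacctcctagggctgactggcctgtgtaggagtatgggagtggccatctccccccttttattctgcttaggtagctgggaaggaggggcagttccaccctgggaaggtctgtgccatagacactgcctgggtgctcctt

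Il1rn, downstream start, chr2:24345121-24345420: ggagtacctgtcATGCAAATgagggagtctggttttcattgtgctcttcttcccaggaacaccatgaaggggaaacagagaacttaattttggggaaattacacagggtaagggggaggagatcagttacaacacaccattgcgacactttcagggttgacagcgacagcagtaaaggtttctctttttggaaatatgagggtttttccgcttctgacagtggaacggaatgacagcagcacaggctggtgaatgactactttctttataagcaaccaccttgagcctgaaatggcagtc

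The octamer was found in the downstream windows of Spp1 and Il1rn, both of genes lower in tuft cells, and not in the windows of Il1rap and Il6st. Of the 9 windows, 3 held it, but 2 of these are overlapping windows of Il1rn that share a single match, and 1.74% of 32851 promoter windows of the same length hold it. The AP-1 motif was found in the upstream window of Il1rn and in that of Il22ra1 (7.81% of all windows), the kappaB motif in that of Il22ra1 (8.46%), and the STAT motif in none of the 9 (8.30%). No match overlapped a match to another motif, and the window of Mif, on the minus strand, held none. These are matches of letters and not measured binding.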

How the data were processed

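Libraries of sorted cells were grouped by their titles in the sample records into 5 tuft and 5 non-tuft libraries. The authors mapped reads of 50 bases to mm9 with Hisat2, obtained RPKM per gene from Stringtie and Ballgown, removed genes with an RPKM variance under 1, and took log2 and quantile normalized. The deposited table holds these log2 values, and the addition of 1 is read from the floor of 0. It also holds the authors' own comparison, as a fold ratio with its p-value and false discovery rate, and none of these was used. Tool versions are not given in the sources used here. Read counts were not used, which leaves library depth unknown, and no counting interval is given.

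The difference between the groups was fitted over all 12160 listed genes with lmFit and eBayes of limma 3.58.1 (R 4.3.3), without covariates, and p-values were adjusted by Benjamini-Hochberg. Called genes had an adjusted p under 0.05 with more than a 4-fold difference, as in the study's methods. For single genes an exact permutation test of the group labels (two-sided) was added. The fit was tested on simulated data. Both groups came from the same 5 mice, and the sources do not tie a library number to a mouse. Gene positions came from GENCODE vM1 (NCBIM37), and promoter windows from RefSeq.

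The genes of the set, the pathway lists and the marker lists were chosen with earlier results of these data known. Values in every library are given for each gene of the set with an adjusted p under 0.05, without overlap between the groups, or with a group mean of 5 or more on the log2 scale. Other genes of the set are given by role, range and counts, and single library values of these, as well as the genes shown with the libraries numbered 5, were chosen after their values were seen. From the pathway lists, genes with an adjusted p under 0.05 are named, except 1 that is not reported here, and Lifr, Osmr, Cd44, Cd74, Ackr3, Stat3, Socs3, Myd88 and Casp1 were added as partners of genes of the set. The alternatives were the replicate number as a block, 0.1 or 10 in place of 1 before log2, only genes with a mean over all libraries of 2 or more, 80 ribosomal protein genes as the common centre, the trend and robust settings of eBayes, the floor of every library set to 0, a fold threshold of 2 or none, and each library left out in turn. Leaving out both libraries numbered 5 was added after the data were seen.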

Additional observations from a re-analysis of the deposited data

Results flagged for a closer look

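Among the 82 sets of 5 libraries (41 genes in 2 groups), 27 had a highest or lowest library far from the other 4 by Dixon's criterion. The 4 sets with every library at the floor could not be flagged. In most of the flagged sets the other libraries lie at the floor, so a single library with signal is enough. The criterion's rate of about 1 in 20 is for normally distributed values, so the number flagged cannot be compared with it. The cause was not tested.

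In the libraries numbered 5, the values that stood apart were Il7r (5.93), Il2rg (5.50), Il3ra (3.59), Ccl11 (3.18) and Il2rb (2.27) in non-tuft library 5, and Il2rg (3.27), Ccl11 (2.84), Il7r (2.34), Csf1 (1.08), Il17rd (0.22) and Il1r1 (0.16) in tuft library 5. These 11 include the 4 genes described beside the fibroblast and lymphocyte markers of the same libraries.

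In the other tuft libraries the values were Il15ra in library 1 (2.51), Ccl25 (4.81), Il11ra2 (2.98) and Cx3cl1 (2.57) in library 2, Cxcl1 (2.87), Ccl6 (2.44) and Il2rb (0.72) in library 3, and Il1rn (3.88) and Cxcl12 (1.79) in library 4. In the other non-tuft libraries they were Il11ra2 (2.17) and Cxcl5 (1.21) in library 1, Il1rn in library 2 (0.17, its floor), Il10ra (2.08), Il23a (1.47) and Il7 (0.041) in library 3, and Ccl20 in library 4 (2.74).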

How the results depend on the processing

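Il7 and Spp1 kept an adjusted p under 0.05 under each alternative tried, Il7 being absent from the filter on mean level. Of the 41 genes, 2 were called higher, which became 1 with only genes whose mean was 2 or more, 0 with 10 added before log2 (where limma gave 2 at an unadjusted p under 0.05), and 1 to 2 with libraries left out. The 5 called lower became 3 with 0.1 added, 2 with 10 added, 1 after centring on ribosomal protein genes, and 2 to 6 with libraries left out. The 9 past the adjusted p became 4 after centring and 4 to 9 with libraries left out. Of the pathway genes, 5 called higher became 3 with the filter, 1 with 10 added, 8 after centring and 3 to 4 with libraries left out, and 4 called lower became 2 with the filter, 0 with 10 added (10 at an unadjusted p under 0.05), 2 after centring and 3 to 5 with libraries left out. The filter tests fewer genes. For the other settings the cause was not tested.

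With the replicate number as a block, 2 genes were called higher, 4 lower and 8 passed the adjusted p, with Clcf1 lost, and of the pathway genes 5 were called higher and 3 lower. Deviations of same-numbered libraries from their group means correlated at 0.062 to 0.240, over 0.1 in 3 of 5 pairs, and 3 of the 5 tuft libraries correlated best with the non-tuft library of their own number. Both groups came from the same mice, but no source used here ties a number to a mouse, so whether the numbers pair the samples is unknown and the block was kept as an alternative.

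Genes far from the threshold changed sign in places. After centring these were Il17re (0.020), Ccl27a (0.20), Il17rc (0.41), Ccl6 (0.096), Il23a (0.47), Il7r (0.046), Il2rb (0.45), Tgfb2 (0.53), Il2rg (0.42), Ccl25 (0.60) and Ccl11 (0.70). With 10 added it was Ccl25 (0.11), and with 0.1 added Il11ra2 (-0.043) and Il18bp (-0.45). With libraries left out, the log2 difference ranged from -1.19 to 0.097 for Ccl6, -1.22 to 0.43 for Il7r, -0.49 to 0.14 for Il2rb, -0.040 to 0.78 for Il10ra, -0.52 to 0.069 for Tgfb2, -0.19 to 0.54 for Cx3cl1, -1.01 to 0.71 for Il2rg, -1.11 to 0.16 for Ccl25, -0.47 to 0.55 for Il11ra2, -0.67 to 0.53 for Ccl11 and -0.27 to 0.15 for Il18bp. Depth is unknown, so how much expression a floor value still allows cannot be given.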
